A study of Mus musculus with 4 samples.

Results

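Prostaglandin synthesis and signalling genes were followed in mouse hearts put under pressure load by transverse aortic constriction (TAC, an operation that narrows the aorta), in animals with and without MAFbx. A set of 10 genes had been listed: the cyclooxygenases Ptgs1 and Ptgs2, the terminal synthases Ptges, Ptges2, Ptges3, Ptgis, Ptgds and Tbxas1, the receptor gene Ptger4 and the breakdown enzyme gene Hpgd. A gene was read from the probe set whose only symbol in the array annotation is that gene, with the highest 4-array mean where there were several. By this rule 9 of the 10 genes were measured, out of 19938 genes with such a probe set, and Ptgs1 was not analysed here. All 9 passed the filter on dim genes that left 16708 genes for testing. The set was chosen because Ptgs2 is lower in the knockout hearts, so the knockout against wild type values of its members are given as a description, with no test.

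The knockout hearts were labelled MAFbx KO (3 arrays, KO 1 to KO 3) and the hearts set against them were labelled wildtype (1 array, WT 1), and all 4 were taken 1 week after TAC. MAFbx, also called atrogin-1 and encoded by Fbxo32, is a muscle F-box protein that brings substrates to a ubiquitin ligase. The labels give neither the form of the deletion nor the age, sex or strain of the mice. They do not say that each array is a separate animal, so p-values measure a spread between arrays. That spread comes from the KO arrays and from other genes, since WT has 1 array. Hearts without TAC were not analysed here.

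Prostaglandins are lipid mediators made from arachidonic acid, which phospholipases free from membranes. A cyclooxygenase converts it to prostaglandin H2, and a terminal synthase turns that into prostaglandin E2, D2, F2-alpha, prostacyclin or thromboxane, each acting through its own G protein-coupled receptors. Ptgs1 is the largely constitutive cyclooxygenase, whereas Ptgs2 is induced by cytokines, growth factors and mechanical stress. In the heart, prostacyclin dilates vessels, thromboxane constricts them and activates platelets, and prostaglandins E2 and F2-alpha act on cardiomyocytes and fibroblasts.

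All values are log2 signals after RMA, which corrects for background, quantile-normalizes the arrays and summarises each probe set, and a difference is the KO mean minus WT on that scale. The median gene read between 6.57 and 6.62 on each array. Fbxo32 read 5.65, 5.61 and 5.56 in KO 1, KO 2 and KO 3 and 7.54 in WT 1, a difference of -1.93 (SE 0.17, limma adjusted p = 0.0573). The 8 cardiomyocyte markers averaged 13.00, 13.00 and 12.85 on the KO arrays and 12.85 on the WT array. Xist, transcribed from the inactive X chromosome, read 9.18, 9.52 and 3.20 in KO 1, KO 2 and KO 3 and 4.13 in WT 1, and the Y-linked gene Eif2s3y read 3.31, 3.64 and 8.49 on the KO arrays and 8.57 in WT 1. By these transcripts KO 1 and KO 2 have a female pattern and KO 3 and WT 1 a male one, though the labels do not give the sex. Each KO mean and each comparison of KO with WT therefore mixes sex with genotype, and the fit held no covariate for sex. KO 3 is thus the array that matches WT 1 in these sex-linked transcripts. Over all genes tested, too, the Pearson correlation of KO 3 with WT 1 (0.986) was above that with KO 1 (0.978) or KO 2 (0.982), a description across genes, which are not independent replicates. For this reason the difference of KO 3 from WT 1 alone is given beside the results. Over all 16708 genes 1 gene passed an adjusted p of 0.05 (0.00599% of those tested, limma with Benjamini-Hochberg adjustment). This was Hmox1, the gene of heme oxygenase 1, with a difference of -2.58 (SE 0.19, adjusted p = 0.0430). Hmox1 read 7.23, 7.49 and 7.47 in KO 1, KO 2 and KO 3, against 9.98 in WT 1, with single differences of -2.75, -2.49 and -2.51. When any KO array was left out it did not pass this threshold, and fewer arrays were then left to measure the spread.

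Ptgs2, the inducible cyclooxygenase, read 6.42, 6.30 and 6.53 in KO 1, KO 2 and KO 3, against 7.93 in WT 1. All 3 KO arrays lay below the WT array, and the nearest of them, KO 3, differed from it by -1.40. The KO mean was 6.42 ± 0.12 (SD, n = 3), a difference of -1.51 (SE 0.18), or 2.85-fold lower. The KO arrays of high and low Xist together spanned 0.23. By the size of its difference Ptgs2 ranked 30th from the lowest among the 16708 genes, which is the value it was chosen for.

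The starts of Ptgs2 and Tbxas1 are shown because these genes had the lowest differences of the set. The sequences are from RefSeq (GRCm38.p6), which held a window of 250 bases before to 50 after the annotated start for 8 of the 9 measured genes, all but Ptgis. Each window was searched on both strands for CGTCA (the core of a cyclic AMP response element), CACGTG (an E-box), TATAAA and the NF-kB (kB) consensus, and capitals mark every match.
Ptgs2, the 250 bases before the start, chr1:150099781-150100030, plus strand: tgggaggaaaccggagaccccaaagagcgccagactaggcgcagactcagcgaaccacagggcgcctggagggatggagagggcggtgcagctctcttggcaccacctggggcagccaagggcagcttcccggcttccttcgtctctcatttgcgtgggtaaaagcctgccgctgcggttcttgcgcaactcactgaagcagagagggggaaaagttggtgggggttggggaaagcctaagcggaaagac
Ptgs2, 30 bases shortly after the start, chr1:150100033-150100062, plus strand: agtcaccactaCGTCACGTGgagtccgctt
Tbxas1, the 250 bases before the start, chr6:38918736-38918985, plus strand: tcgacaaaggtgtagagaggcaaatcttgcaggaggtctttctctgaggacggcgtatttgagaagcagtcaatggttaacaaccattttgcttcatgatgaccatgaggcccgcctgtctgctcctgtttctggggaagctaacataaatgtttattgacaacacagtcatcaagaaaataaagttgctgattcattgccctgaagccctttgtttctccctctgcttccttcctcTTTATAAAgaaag
In Ptgs2 the letters CGTCA began at base 14 after the start and CACGTG at base 17, so they share the letters CA. CGTCA was in 20.8% and CACGTG in 7.15% of the 32851 windows of all genes. The capitals of Tbxas1 are 2 overlapping matches to TATAAA, 1 on each strand, and 13.6% of all windows held that motif. The kB consensus, in 8.46% of all windows, matched neither gene within its window and was found in those of Ptges3 and Ptgds. Among the other members CGTCA was also found in the window of Ptges3, CACGTG in that of Ptges2 and TATAAA in that of Hpgd. These matches describe letters and are not evidence of binding.

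Tbxas1, thromboxane A synthase, which is known from platelets and macrophages, read 5.37, 5.57 and 5.28 in KO 1, KO 2 and KO 3, against 6.39 in WT 1. Again every KO array lay below the WT array, with single differences of -1.02, -0.82 and -1.11. The KO mean was 5.41 ± 0.15 (SD, n = 3), a difference of -0.98 (SE 0.19), or 1.98-fold lower. After centring each gene on its 4-array mean, Tbxas1 was the member nearest to Ptgs2 in pattern, with a root mean square difference of 0.30 over the 4 arrays, and 93 other genes were nearer.

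Of the prostaglandin E synthases, Ptges lay above the WT array on all KO arrays, as in 24.2% of all genes tested. Ptges2 did so only in KO 1 and KO 2. Ptges, the inducible microsomal synthase that is often coupled to Ptgs2, read 6.17, 6.12 and 5.85 in KO 1, KO 2 and KO 3, against 5.80 in WT 1. Its KO mean was 6.05 ± 0.17 (SD, n = 3), a difference of 0.25 (SE 0.20), and KO 3 was 0.05 above WT 1. Ptges2, the membrane-associated synthase 2, read 8.17, 8.14 and 7.73 on the KO arrays, against 7.80 in WT 1, a difference of 0.21 (SE 0.23). KO 1 and KO 2 stood above WT 1 in both genes, while KO 3 differed from WT 1 by 0.05 in Ptges and by -0.07 in Ptges2. Ptges and Ptges2 were each other's nearest member, with a root mean square difference of 0.06. Outside the set, 282 genes were nearer to Ptges and 182 nearer to Ptges2 than this.

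Ptges3, the cytosolic synthase that is also the HSP90 co-chaperone p23, had 3 probe sets that gave different values. The probe set with the highest mean (10511865) read 10.23, 10.62 and 10.71 in KO 1, KO 2 and KO 3, against 11.00 in WT 1, a difference of -0.48 (SE 0.23). Probe set 10539649 read 9.50, 9.84 and 9.91 on the KO arrays, against 10.24 in WT 1, a difference of -0.49. Probe set 10367100 read 8.56, 8.40 and 8.53, against 8.68, a difference of -0.18. All KO arrays lay below the WT array in each, but the size depended on the probe set, and KO 1 was the lowest array in the first pair and not in the third.

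The order of probe set numbers follows the chromosomes, which bears on this gene. Ptges3 lies on chromosome 10 in RefSeq, and 19 of the 20 named neighbours of probe set 10367100 do too. Of the neighbours of 10511865, 19 of 20 lie on chromosome 4, and of those of 10539649, 19 of 20 lie on chromosome 6, where RefSeq places the pseudogene Ptges3-ps. Which transcript each probe set reads was not tested, so the Ptges3 value chosen by the rule is uncertain.

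**Figure D1:**
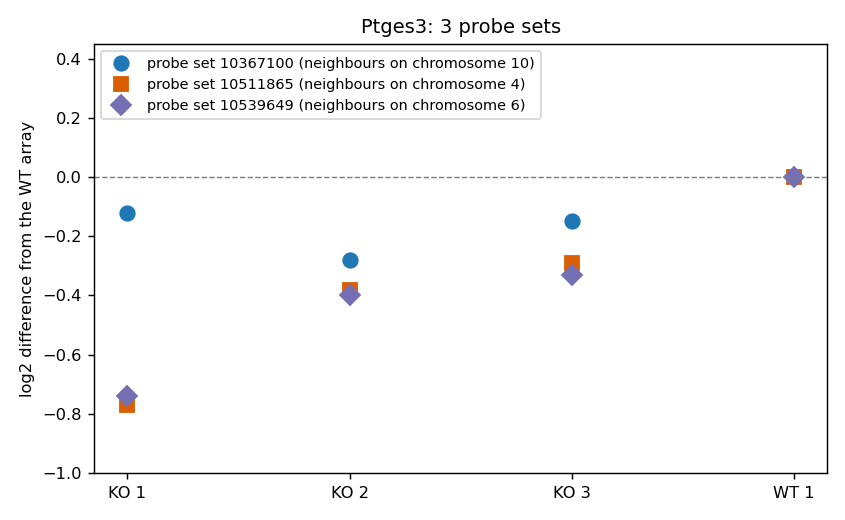
Log2 difference of each array from the WT array (y axis) for the 3 Ptges3 probe sets, with the KO arrays left of WT 1. The probe set with neighbours on chromosome 10 (blue) lies nearer to 0 in KO 1 than the other probe sets, with a mean difference of -0.18 against -0.48 and -0.49.

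Ptgds, the prostaglandin D synthase of the lipocalin family, read 10.81, 11.08 and 10.48 in KO 1, KO 2 and KO 3, against 10.39 in WT 1. All KO arrays lay above the WT array, as in 24.2% of all genes tested. The KO mean was 10.79 ± 0.30 (SD, n = 3), a difference of 0.40 (SE 0.25), or 1.32-fold higher. KO 3 was only 0.09 above WT 1, and the KO spread was wider than that of 87.7% of the genes tested. Ptgis, prostacyclin synthase, read 7.28, 7.54 and 7.70 on the KO arrays, against 7.63 in WT 1. Its WT value lay among the KO values, and the difference was -0.12 (SE 0.21).

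The receptor and breakdown genes had small differences. Ptger4, the EP4 receptor for prostaglandin E2, which raises cyclic AMP, read 6.73, 6.57 and 6.76 in KO 1, KO 2 and KO 3, against 6.84 in WT 1. All KO arrays were lower, with KO 3 at -0.08 from WT 1, and the difference of the mean was -0.15 (SE 0.18). Hpgd, 15-hydroxyprostaglandin dehydrogenase, which inactivates prostaglandins, read 6.64, 7.46 and 7.34 on the KO arrays, against 6.87 in WT 1. KO 1 lay below and KO 2 and KO 3 above the WT array, with a difference of 0.28 (SE 0.32) and a KO spread wider than that of 96.7% of the genes tested.

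**Figure D2:**
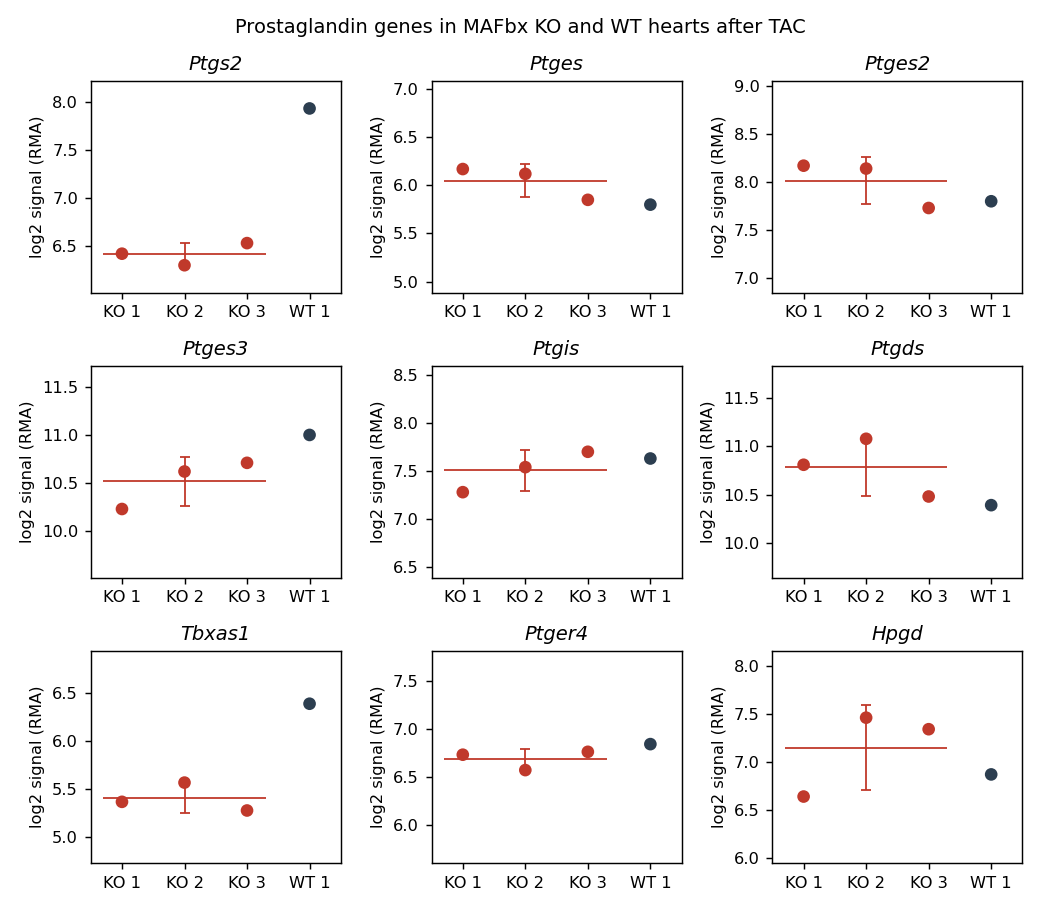
Log2 RMA signal (y axis, each panel spanning the same height) of the 9 measured prostaglandin genes in KO 1 to KO 3 (red) and WT 1 (dark), with the red line and bar for the KO mean and SD (n = 3). Ptgs2 and Tbxas1 show a WT value well apart from the KO values, with differences of -1.51 and -0.98, while the other genes differ from WT by 0.48 or less in size.

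Counted over the set, 4 of the 9 genes (Ptgs2, Tbxas1, Ptges3 and Ptger4) had all KO arrays below the WT array, against 24.2% of all genes tested. In 2 of the 9 (Ptges and Ptgds) all KO arrays lay above it, and the share over all genes was also 24.2%. The median difference of the set was -0.12, beside 0.00 over all genes. As the set was chosen from this contrast, nothing is read from these counts.

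The 5 genes whose centred values lay nearest to those of Ptgs2 over the 4 arrays were Tubb3, Ccl6, Arg1, AA467197 and Ccl2, with root mean square differences of 0.08, 0.10, 0.13, 0.13 and 0.13. Ccl6 and Ccl2 encode chemokines, Arg1 encodes arginase 1 and Tubb3 a beta-tubulin. Ccl2 read 5.74, 5.53 and 6.12 in KO 1, KO 2 and KO 3, against 7.35 in WT 1. Ccl6 read 7.84, 7.86 and 7.80 on the KO arrays, against 9.33 in WT 1. Likeness over 4 arrays is a description only. That all 5 genes were lower on each KO array than on the WT array follows from how they were picked.

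Macrophage markers were also lower on the KO arrays. Of 11 markers tested, 10 had all KO arrays below the WT array (24.2% of all genes) and 0 had all above (24.2%), with a median difference of -0.88. Their log2 values summed to 80.1, 81.2 and 86.0 in KO 1, KO 2 and KO 3 and to 92.5 in WT 1. Ccr2, a chemokine receptor of monocytes and the lowest of the list, read 4.74, 5.21 and 6.16 on the KO arrays, against 7.39 in WT 1. Itgam, the CD11b integrin subunit and the next lowest, read 6.60, 6.44 and 7.01, against 8.27. Cd14, by contrast, differed by 0.04. In KO 3 alone, Csf1r, Lyz2 and C1qa differed from WT 1 by -0.10, -0.10 and -0.03. By array, the median marker differed from WT 1 by -1.07, -0.86 and -0.82 in KO 1, KO 2 and KO 3. None of the 11 passed an adjusted p of 0.05 with limma, and 7 were lower at an unadjusted p under 0.05 (3.87% of all genes).

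Platelet markers, listed because platelets also express Tbxas1, had 4 of 5 genes with all KO arrays below the WT array (24.2% of all genes) and a median difference of -0.24. Pf4 and Ppbp, the platelet factor 4 and pro-platelet basic protein genes, differed by -1.19 and -1.07. The other markers differed less, Itga2b, the platelet integrin subunit, by -0.12, Gp9 by -0.19 and Itgb3 by -0.24. The log2 values of the list summed to 29.9, 29.5 and 30.6 on the KO arrays and to 32.8 in WT 1. The part of these cells in the values of Ptgs2 and Tbxas1 was not tested. In whole-heart RNA, fewer cells of a type and less RNA per cell cannot be told apart.

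**Figure D3:**
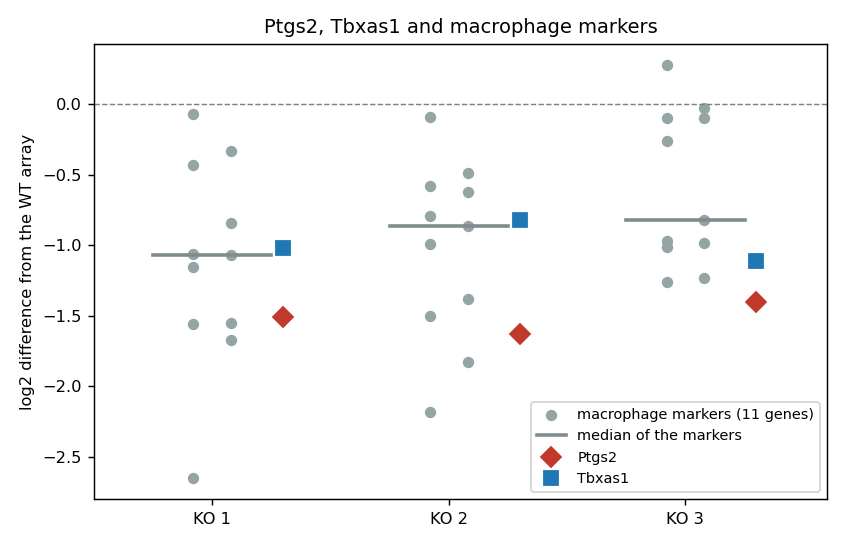
Log2 difference of each KO array from the WT array (y axis) for the 11 macrophage markers (grey, with their median as a bar), Ptgs2 (red diamond) and Tbxas1 (blue square). In KO 1 and KO 2, Ptgs2 (-1.51 and -1.63) lies within the wide range of the markers, -2.65 to -0.07 and -2.18 to -0.09 (lowest marker Ccr2). In KO 3 it lies below their lowest value (-1.40 against -1.26). On each KO array Ptgs2 is below the marker median (-1.07, -0.86 and -0.82). Tbxas1 lies within the marker range on each KO array (-1.02, -0.82 and -1.11).

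The other genes were listed by role: release of arachidonic acid, other synthases, other receptors, transport and breakdown, the lipoxygenase branch, and genes induced by cyclic AMP and CREB. Of 54 genes 48 were tested, and 0 passed an adjusted p of 0.05 with limma. At an unadjusted p under 0.05, 2 were lower (Akr1b8 and Alox5ap) and 2 higher (Prxl2b and Ptgfr), beside 3.87% lower and 1.72% higher of all genes tested. All KO arrays lay below the WT array in 13 of the 48 and above it in 10, near the 24.2% of all genes in each direction. Without the genes induced by cyclic AMP and CREB, these counts were 11 and 7 of 38, with a median difference of -0.02.

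In arachidonate release the lowest difference was that of Pla2g4a, the cytosolic phospholipase A2 that frees arachidonic acid. It read 6.32, 6.70 and 7.01 in KO 1, KO 2 and KO 3, against 7.29 in WT 1, a difference of -0.61 (SE 0.27, limma adjusted p = 0.899). All KO arrays were lower, with KO 3 the closest to WT 1. Pla2g5, a secreted phospholipase A2, was at 0.40 (SE 0.31), with KO 3 at -0.05 from WT 1, and Pla2g4e was at 0.17. Anxa1, annexin A1, known to restrain phospholipase A2, differed by -0.35, a value set by KO 1 at 8.30 beside 9.39 and 9.41 in KO 2 and KO 3 and 9.38 in WT 1. Of the 11 genes 2 had all KO arrays below WT and 0 above (24.2% of all genes in each direction), and the median was -0.02.

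Among 4 other synthases, Prxl2b and Cbr1 were higher and Akr1b8 and Hpgds lower on all KO arrays than on the WT array. Of all genes tested 24.2% were so in each direction. Prxl2b, which encodes a prostamide and prostaglandin F synthase, read 10.02, 10.26 and 9.96 in KO 1, KO 2 and KO 3, against 9.31 in WT 1. The difference was 0.77 (SE 0.19, limma adjusted p = 0.551), and KO 3 alone stood 0.65 above WT 1. Akr1b8, an aldo-keto reductase, read 5.88, 6.53 and 6.32, against 6.91, a difference of -0.67 (SE 0.26, adjusted p = 0.846). Hpgds, the hematopoietic prostaglandin D synthase, differed by -0.45 (SE 0.28), and the carbonyl reductase gene Cbr1 by 0.42 (SE 0.24). For prostaglandin D2 the synthase genes thus stood on opposite sides of the WT array, Ptgds above and Hpgds below. Hpgds did not pass the threshold, and the contrast between them was not tested.

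Of 9 other prostanoid receptor genes Ptgfr had the difference of largest size. Ptgfr, the receptor for prostaglandin F2-alpha, read 6.25, 6.29 and 6.13 in KO 1, KO 2 and KO 3, against 5.58 in WT 1. All KO arrays lay above the WT array, as in 24.2% of all genes tested. The difference was 0.64 (SE 0.18, limma adjusted p = 0.588), or 1.56-fold higher, with KO 3 at 0.55 above WT 1. Ptger2, the EP2 receptor that like EP4 raises cyclic AMP, read 4.46, 4.65 and 4.52, against 4.87, a difference of -0.33 (SE 0.18) close above the filter of 4.10. The prostaglandin D2 receptor genes Ptgdr2 and Ptgdr differed by -0.29 and 0.14. Ptgir, the prostacyclin receptor, and Tbxa2r, the thromboxane receptor, differed by 0.03 and -0.05, with the WT value among the KO values in each.

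Transport and breakdown genes were split. Ptgr1, prostaglandin reductase 1, differed by -0.42 (SE 0.23), and Ptgr2, prostaglandin reductase 2, by 0.41 (SE 0.24), each with all KO arrays on its side of the WT array. Slco2a1, the prostaglandin transporter, was at -0.27, with KO 3 at 0.03 above WT 1, and Cbr3 at 0.16. The median of the 6 genes was -0.01, with all KO arrays below WT in 1 and above in 1 (24.2% of all genes in each direction).

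On the lipoxygenase and leukotriene branch, which uses the same arachidonic acid, Alox5ap had the difference of largest size among 8 genes tested. Alox5ap, the activating protein of 5-lipoxygenase found in myeloid cells, read 7.37, 7.52 and 7.74 in KO 1, KO 2 and KO 3, against 8.50 in WT 1. The difference was -0.96 (SE 0.20, limma adjusted p = 0.412), or 1.94-fold lower, and KO 3 alone gave -0.76. Cysltr1, a cysteinyl leukotriene receptor, was at -0.55 (SE 0.30), Ltc4s, leukotriene C4 synthase, at 0.35 (SE 0.20) and Alox15 at 0.24. All KO arrays lay below WT in 4 of the 8 genes and above in 2 (24.2% of all genes in each direction), with a median of -0.07.

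Genes that cyclic AMP and CREB are known to induce, which EP4 and the prostacyclin receptor can activate, had a median of 0.08 over 10 tested. All KO arrays lay below the WT array in 2 and above in 3 (24.2% of all genes in each direction). Pde4b, a cyclic AMP phosphodiesterase, was at -0.43 (SE 0.19, limma adjusted p = 0.899), Dusp1, a MAP kinase phosphatase, at 0.33 and Ppargc1a, a coactivator of mitochondrial genes, at 0.26. Nr4a1, an orphan nuclear receptor, was at -0.14, with KO values of 9.05, 7.84 and 8.11 around the WT value of 8.47.

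**Figure D4:**
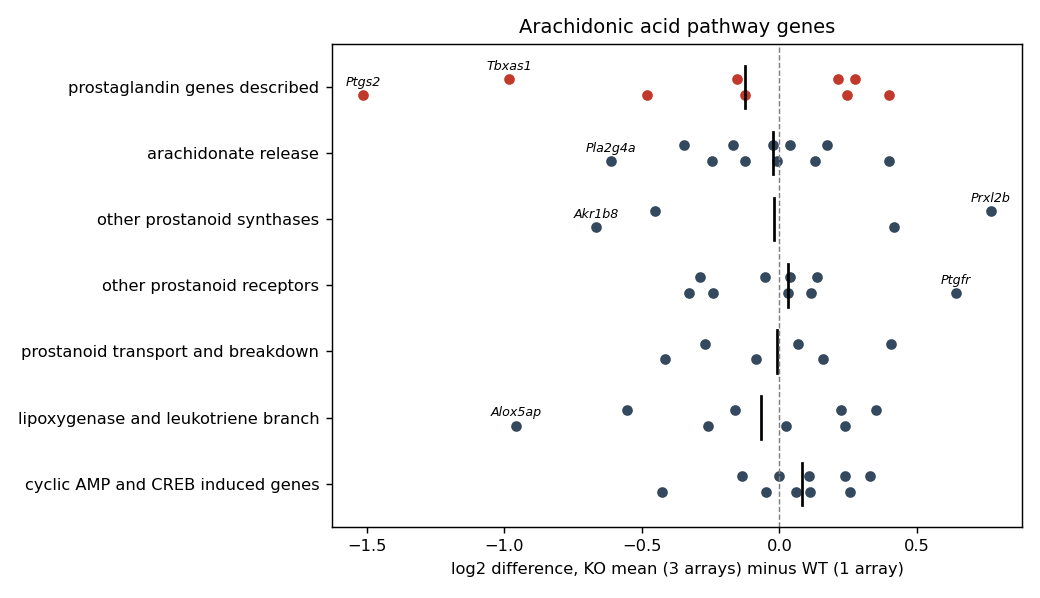
Log2 difference, KO mean (n = 3) minus WT (n = 1), on the x axis for each gene (points) by group (rows), with the median as a black bar and gene names beyond 0.6 in size. Ptgs2 (-1.51) and Tbxas1 (-0.98) lie lowest in the first row, Alox5ap (-0.96) is the lowest of the other 48 genes and Prxl2b (0.77) and Ptgfr (0.64) are the highest.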

How the data were processed

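RNA of 4 heart samples was measured on Affymetrix Mouse Gene ST arrays, with 1 array per sample, per the labels. The deposited log2 values were made by the authors with Affymetrix Expression Console and RMA, per the submitters' processing notes, with no version stated. RMA gives all arrays nearly equal distributions, which removes shifts shared by most genes, and compresses differences between dim genes.

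Of 35556 probe sets 21789 had 1 gene symbol in the platform annotation, 1621 had several and 12146 were unlisted. Genes under the 25th percentile of the table (4.10 as a 4-array mean) were left out. KO was compared with WT by limma 3.58.1 in R 4.3.3 (two-sided, 2 residual and 5.05 prior degrees of freedom). The lone WT array is assumed to vary like the KO arrays. With 1 array against 3 the smallest exact permutation p is 0.25, and so few arrays limit the precision. The comparison was also run on simulated data with the same spread on all 4 arrays, which cannot check whether WT varies like KO.

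The members, the lists by role, the marker lists and the naming rule (all members, and in each list the 2 largest differences in each direction and any gene at an unadjusted p under 0.05) were chosen with earlier results of these data known. The cell type markers, Ptgir and Tbxa2r are named outside that rule, after their values were seen.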

Additional observations from a re-analysis of the deposited data

How the results depend on the processing

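The number of genes past an adjusted p of 0.05, 1 in the comparison reported, was 0 with renewed quantile normalization, 0 with no filter on dim genes, 3 with a filter at the 50th percentile, 7 with median centring, 7 with a mean-variance trend and 9 with robust variance estimates. It was 0 without each KO array in turn, and 1 with a filter over single-symbol probe sets (chosen after seeing the data). Pathway genes lower at an unadjusted p under 0.05 numbered between 1 (without KO 1) and 3 (without KO 3). The Ptgs2 difference lay between -1.57 and -1.40 and that of Tbxas1 between -1.11 and -0.92 over 10 alternatives each. The filters and the averaging of probe sets could not change these 2 values, and every alternative used the same WT array. With KO 3 against WT 1 alone, 4 of the 9 members were above WT, the differences of Ptges and Ptgds were 0.05 and 0.09, and Ptges2 and Ptgis took the other sign (-0.07 and 0.07). Ptges3 read by probe set 10367100, chosen after seeing the data, gave -0.18. No paired analysis was possible because WT has 1 array.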

Other observations

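Markers of other cell types that a heart sample could hold were counted in the same way. Over all genes tested 24.2% had all KO arrays above and 24.2% all below the WT array. Of 6 markers listed for each type, only 4 neutrophil, 3 mast cell and 3 lymphocyte markers were tested. Some read low: the mast cell marker Mcpt4 had a KO mean of 4.26 and a WT value of 4.81, close above the filter of 4.10. The neutrophil marker Csf3r had a KO mean of 4.89 and a WT value of 5.57. All KO arrays lay above the WT array in 4 of 6 endothelial markers (median difference 0.32), in 2 of 3 lymphocyte markers (0.22) and in 2 of 8 cardiomyocyte markers (0.06). Fibroblast markers had all KO arrays below in 1 and above in 2 of 8 genes. Their median was -0.13, but 0.44 in KO 3 against WT 1 alone. All KO arrays lay below the WT array in 3 of 6 smooth muscle and pericyte markers (-0.14), 2 of 4 neutrophil markers (-0.37), 1 of 3 mast cell markers (-0.15) and 1 of 5 mesothelial markers (-0.04). In the opposite direction lay 1 smooth muscle and pericyte marker and 1 mast cell marker. In the endothelial, lymphocyte, cardiomyocyte, neutrophil and mesothelial lists 0 markers did. None of the markers of these cell types passed an adjusted p of 0.05 with limma. At an unadjusted p under 0.05 there was 1 neutrophil, 1 mast cell and 1 smooth muscle marker, each lower.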
